A study of Homo sapiens with 3 samples.

Results

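The genes described here are 58 regulators of chromatin that lie outside the BAF complex, taken by name from a fixed list and grouped into 11 families by textbook role. They comprise Polycomb subunits, histone methyltransferases, demethylases, acetyltransferases and deacetylases, nucleosome remodellers of the CHD, ISWI and INO80 families, BET readers and enzymes of DNA methylation. All 58 were found among the 19866 protein-coding genes of the annotation. For each gene, peaks of ARID1B were taken at either gene end (within 1000 bp), inside the gene away from its ends, and within 100 kb of the gene body.

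ARID1B was mapped by chromatin immunoprecipitation and sequencing (ChIP-seq) in HEK293FRT, a line derived from human embryonic kidney HEK293 cells. The labels give no treatment, and no genotype beyond the name of the line, whose ending FRT they do not explain. The samples were 2 ARID1B replicates and 1 input, which is not analysed here. Each replicate has its own peak list, with 1792 and 1820 peaks on the genome build hg38, without read counts, which leaves the depth unknown. Whether the replicates were separate cultures is not stated in the labels, peak lists hold no expression by which the cell type could be checked, and there is no comparison group, so counts are given beside those over all protein-coding genes and without p-values.

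ARID1B is a DNA-binding subunit of BAF (SWI/SNF), an ATP-driven complex that slides and evicts nucleosomes. The genes of the list encode other enzymes, readers and remodellers of chromatin. Polycomb complexes methylate and ubiquitinate histones at silent developmental genes, and in many tissues BAF acts against them. The KMT2 enzymes, with the demethylase KDM6A, mark promoters and enhancers, the acetyltransferases open chromatin at active sites, and the CHD, ISWI and INO80 enzymes remodel nucleosomes in their own right.

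Peaks lay near a minority of these genes. A region found in both replicates, that is overlapping peaks of the lists, lay within 100 kb of 11 of the 58 genes (19.0%), where 11.8% of all protein-coding genes had one. Within 50 kb it was 10 of the 58 (background 7.54%), and within 200 kb it was 12 (background 19.6%). With peaks of either replicate within 100 kb the count was 20 of 58 (34.5%), against a background of 18.7%. Of these, 5 had it at an end (background 1.89%) and 6 inside (background 3.56%), 1 gene, KAT6B, being counted in both. The other 38 genes had no peak within 100 kb in either list. At gene ends, 2 of 58 genes (3.45%) had a region of both replicates, BRD2 and KAT6B, against 1.05% of all protein-coding genes. Inside the gene, 4 of 58 (6.90%) had one, KMT2C, KDM6A, KDM6B and KAT6B, against 2.25%. These counts are small, and the exact Clopper-Pearson 95% intervals, which cover counting error only, run from 0.420 to 11.9% for the ends, from 1.91 to 16.7% for the inside and from 9.87 to 31.4% within 100 kb. For peaks of either replicate within 100 kb the interval runs from 22.5 to 48.1%. The intervals treat the genes as independent, although 1 region counts for both KDM6B and CHD3. They are not a test, as the list was chosen with earlier results of these data known.

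**Figure D1:**
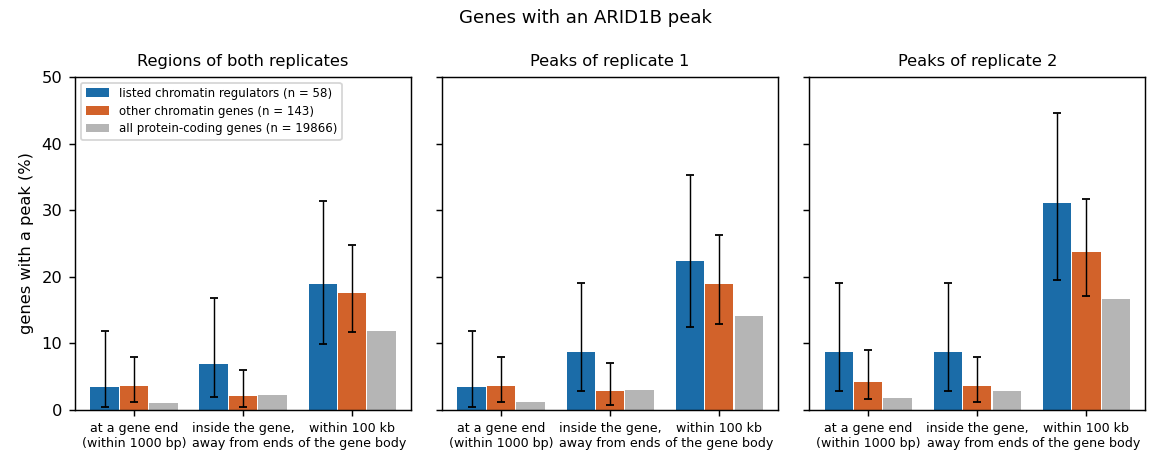
Share of genes (y axis, percent) with an ARID1B peak in each of 3 positions (x axis), for the 58 listed chromatin regulators (blue), 143 other chromatin genes (orange) and all 19866 protein-coding genes (grey). Panels show regions of both replicates, peaks of replicate 1 and peaks of replicate 2, and lines are exact 95% intervals; the blue bars stand highest in replicate 2, at 8.62% for ends and 31.0% within 100 kb.

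The shares of genes with a region varied with gene length. The chromatin regulators had a median length of 62.8 kb (4.22 to 353 kb), against 24.5 kb for all protein-coding genes. Of the 58, 27 fell in the longest quartile of protein-coding genes, in which 7.23% of all genes held a region of both replicates inside. Among these 27 long regulators, 3 held one. At gene ends the shares ran the other way, from 1.39% of all genes in the shortest quartile to 0.725% in the longest. Within 100 kb they were 10.9, 11.0, 10.7 and 14.5% from the shortest to the longest quartile. Among the 27 long regulators, 5 had a region within 100 kb.

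The replicates overlapped in part. Peaks of replicate 1 lay within 100 kb of 13 of the 58 genes (background 14.1%) and peaks of replicate 2 within 100 kb of 18 (background 16.6%). Of the 20 genes in all, 11 had a shared region, 7 were reached by replicate 2 alone (4.6% of all protein-coding genes) and 2 by replicate 1 alone (2.1%). At gene ends the difference was 2 genes in replicate 1 (background 1.14%) against 5 in replicate 2 (background 1.8%), because unshared peaks of replicate 2 lay at KMT2A, KAT6A and KAT7 (background 0.8%) and those of replicate 1 at none of the 58 (background 0.116%). Inside, each replicate reached 5 genes (background 3.01% in replicate 1 and 2.85% in replicate 2). Unshared peaks of replicate 1 lay inside 2 genes, KAT2B and KAT6B (background 1.12%), and an unshared peak of replicate 2 lay inside KDM4A (background 0.906%).

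The scores of the peaks near these genes were lower in replicate 1 than in replicate 2 relative to the lists. The score is the authors' own whole number per peak, of unstated scale. It is ranked here by its percentile, its average rank in its own list in percent. Scores and ratios of scores are given as a description and do not measure signal. Near the 58 genes lay 17 peaks of replicate 1, with scores from 27 to 105 and a median of 50 (whole list 10 to 1537, median 74), and 20 peaks of replicate 2, with scores from 33 to 170 and a median of 68 (whole list 11 to 1642, median 75). The median of the whole list was reached by 4 of the 17 peaks in replicate 1 and by 10 of the 20 in replicate 2. Of these peaks 13 and 12 were shared (76.5 and 60.0%), where 73.5 and 72.4% of the whole lists were. They formed 12 distinct regions, 6 at an end or inside a gene of the list and 6 outside. The lower of a region's percentiles had a median of 20.4 over the 12 regions, against 49.2 over all 1313 regions of both replicates. Over the 12 regions the median percentile was 31.2 in replicate 1 and 52.5 in replicate 2 (61.3 and 61.9 over all regions). Over all replicate 2 peaks near these genes it was 44.2. For the 6 regions at an end or inside the order was the other way, with 48.8 in replicate 1 and 44.1 in replicate 2. No region near these genes exceeded a lower percentile of 67.2.

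**Figure D2:**
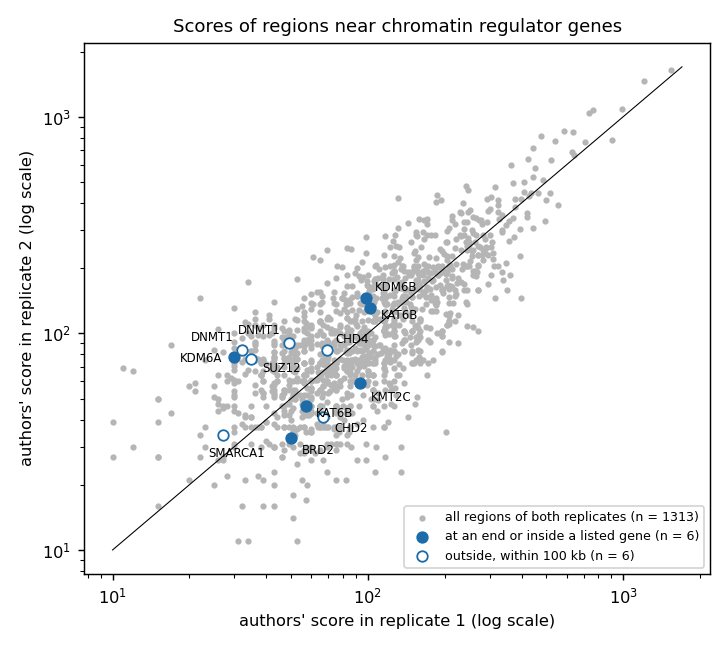
Authors' score of each region of both replicates in replicate 1 (x axis, log scale) and replicate 2 (y axis, log scale), with the line of equal scores. Grey points are all 1313 regions, filled blue points the 6 at an end of or inside a listed gene and open blue points the 6 outside within 100 kb; none of the 12 lies among the highest scores, with KDM6B (98 and 146) and KAT6B (102 and 131) highest.

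A peak of either replicate lay at an end of 3 of the 9 acetyltransferase genes (background 1.89%). KAT6B had one in both lists, KAT6A and KAT7 in replicate 2 alone. A region of both replicates lay at an end of 1 acetyltransferase gene and 1 BET reader gene (background 1.05%). KAT6B, which encodes the MYST-family acetyltransferase MORF, was the gene with the most peaks. It lies at chr10:74824936-75032624 on the forward strand and had 2 regions of both replicates around its start and 2 unshared peaks further in. The upstream region (chr10:74823878-74824105) ended 831 bp before the annotated gene body and scored 57 in replicate 1 and 46 in replicate 2. The downstream region (chr10:74826060-74826681) began 1124 bp inside and scored 102 and 131, which put it at the 67.2 and 76.6 percentiles of the lists. With the window of 1000 bp the upstream region counts as lying at the gene end and the downstream one as lying inside, these being the nearest regions on either side of that limit. The unshared peaks of replicate 1 lay 8.52 kb inside (score 50) and 64.0 kb from the far end (score 41).

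The promoter table, taken from RefSeq (GRCh38.p14), lists 3 transcription starts for KAT6B. The downstream region covered the whole 300-base window of the most distal of these, start 3, and neither region reached the windows of starts 1 and 2. The 250 bases before each start are printed to show how the promoter under the region differs in sequence from those beside it. Capitals mark GC boxes (GGGCGG on either strand) and CCAAT boxes (CCAAT, or ATTGG where the box is on the other strand).
KAT6B start 1, chr10:74825005-74825254, forward strand: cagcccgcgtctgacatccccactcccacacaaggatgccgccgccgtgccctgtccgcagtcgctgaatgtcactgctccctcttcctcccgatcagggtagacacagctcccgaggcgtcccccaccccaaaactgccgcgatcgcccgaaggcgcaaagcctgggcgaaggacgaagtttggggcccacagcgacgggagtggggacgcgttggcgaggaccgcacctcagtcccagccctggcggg
KAT6B start 2, chr10:74825229-74825478, forward strand: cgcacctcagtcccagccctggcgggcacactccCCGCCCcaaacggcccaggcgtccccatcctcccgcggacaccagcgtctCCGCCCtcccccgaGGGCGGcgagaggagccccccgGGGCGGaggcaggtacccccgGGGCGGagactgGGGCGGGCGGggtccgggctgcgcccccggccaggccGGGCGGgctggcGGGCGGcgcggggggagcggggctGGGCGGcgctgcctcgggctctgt
KAT6B start 3, chr10:74826350-74826599, forward strand: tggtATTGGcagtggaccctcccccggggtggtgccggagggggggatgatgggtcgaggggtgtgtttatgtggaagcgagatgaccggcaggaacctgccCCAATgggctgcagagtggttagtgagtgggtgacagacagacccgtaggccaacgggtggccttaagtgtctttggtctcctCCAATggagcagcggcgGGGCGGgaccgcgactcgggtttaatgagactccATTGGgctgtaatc

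In these 250 bases start 3 held 4 CCAAT boxes, beginning at bases 5, 103, 186 and 237 of the printed sequence, and 1 GC box. Start 2 held 10 GC boxes, of which 1 pair overlaps, and no CCAAT box, and start 1 held neither, its 1 GC box lying in the 50 bases after the start that complete the window. The GC content was 61.2% before start 3, 82.0% before start 2 and 68.0% before start 1, so the region lay on the least GC-rich of the 3 promoters.

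**Figure D3:**
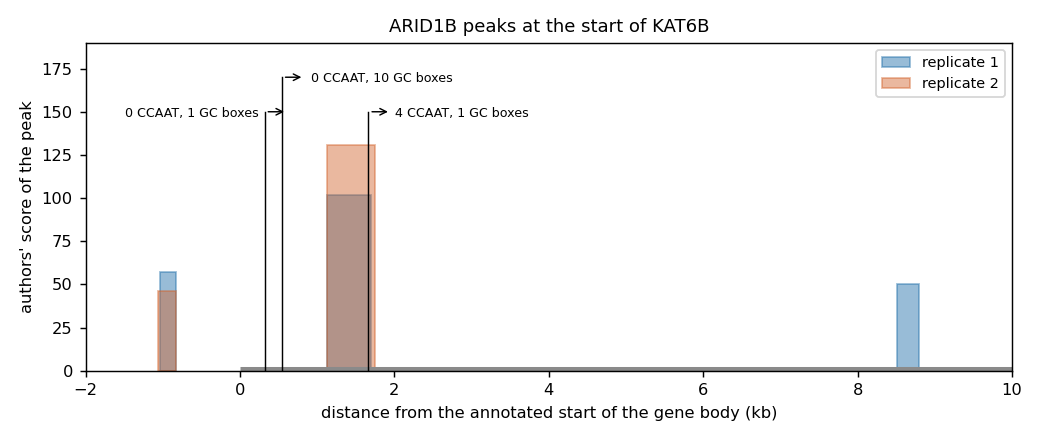
ARID1B peaks at the start of KAT6B, with distance from the annotated start of the gene body in kb on the x axis and the authors' score on the y axis. Bars are peaks drawn at their true width (blue replicate 1, orange replicate 2, overlaid where they coincide), the grey line is the gene, arrows are annotated starts with the boxes counted in their 300-base windows; the highest peaks, with scores of 102 and 131, cover the start with 4 CCAAT boxes.

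The other MYST genes with a peak were reached in replicate 2 alone. KAT6A, the gene of the MOZ acetyltransferase and the closest relative of KAT6B, had an unshared peak 2 bp beyond the right-hand end of its body (chr8:42051989-42052274, score 52, percentile 28.9). By general knowledge KAT6A is read from right to left, so this is its start, and the peak also lay 239 bp from an end of the antisense RNA gene KAT6A-AS1. KAT7, which encodes the acetyltransferase HBO1, had one 446 bp inside its start (chr17:49789127-49789351, score 79, percentile 53.8), 17 bp from an end of the neighbouring gene FAM117A.

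Counted over the 5 MYST genes (KAT5, KAT6A, KAT6B, KAT7 and KAT8), 3 had a peak of replicate 2 at an end (background 1.8%) and 1 had a region of both replicates there (background 1.05%). Among the 4 remaining acetyltransferase genes, EP300, CREBBP, KAT2A and KAT2B, 0 had either. This division into MYST and other genes was chosen after the peaks were seen. KAT2B, the gene of PCAF, held an unshared replicate 1 peak 26.9 kb inside (score 65), while KAT5, KAT8, KAT2A and the p300 and CBP genes had no peak within 100 kb.

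Among the H3K4 methyltransferases, KMT2A had a peak at its start. KMT2A encodes MLL1, which methylates histone H3 at lysine 4 at active promoters and keeps HOX genes on. The peak (chr11:118436247-118436455, score 56, percentile 33.1) was found in replicate 2 alone, ended 37 bp before the gene body and lay wholly within the promoter window. It is printed in full, as the only peak near these genes, apart from the KAT6B region, that overlapped a promoter window of one of them. The promoter table holds no window for KAT6A, so the peak at the start of that gene could not be counted here.
KMT2A peak, chr11:118436247-118436455, forward strand: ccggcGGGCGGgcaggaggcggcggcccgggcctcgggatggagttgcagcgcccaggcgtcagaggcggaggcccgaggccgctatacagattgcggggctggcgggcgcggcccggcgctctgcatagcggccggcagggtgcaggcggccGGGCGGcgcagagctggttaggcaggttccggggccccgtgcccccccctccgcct

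This peak had a GC content of 78.9%, 2 GC boxes and no CCAAT box, unlike the KAT6B start 3 promoter. KMT2C, which encodes the enhancer methyltransferase MLL3, held a region of both replicates 53.4 kb downstream of its start (chr7:152382397-152382625), scoring 93 in replicate 1 and 59 in replicate 2. KMT2B had no peak at its ends or inside, but 2 unshared replicate 2 peaks outside. One lay 15.4 kb upstream (chr19:35702343-35702632, score 170, percentile 84.7, the highest-scoring peak near any of the 58 genes) and was nearer to ZBTB32. The other lay 19.1 kb beyond the far end (score 116) at the start of PROSER3. KMT2D had an unshared replicate 2 peak 66.3 kb away (score 37), 410 bp from an end of the tubulin gene TUBA1B, and SETD1A and SETD1B had none. Within 100 kb, 4 of the 6 H3K4 methyltransferase genes had a peak of replicate 2 (background 16.6%). Only KMT2C had one of replicate 1 as well (background 14.1%).

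Of the 8 demethylase genes, 2 had a region of both replicates inside (background 2.25%) and 0 had one at an end (background 1.05%). KDM6B and KDM6A encode JMJD3 and UTX, which remove the Polycomb mark from lysine 27 of histone H3. KDM6B held the highest-scoring of these regions in replicate 2, at chr17:7836851-7837146, with scores of 98 and 146 (percentiles 65.2 and 79.8), 2634 bp downstream of its first annotated start. The region also overlapped the annotated protein-coding gene LOC124904106. Of all regions inside genes of the list, this one and the KAT6B region were the closest to a gene end. KDM6A held a region 98.5 kb downstream of its start (chrX:44971670-44971970) that scored 30 in replicate 1 and 78 in replicate 2, a score 2.60 times as high in replicate 2. KDM4A, an H3K9 and H3K36 demethylase gene, held an unshared replicate 2 peak 16.6 kb inside (score 60), which also overlapped the annotated gene LOC124904165. The 5 other demethylase genes, KDM1A, KDM2B, KDM5A, KDM5B and KDM5C, had no peak within 100 kb.

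Of the BET readers, which bind acetylated histones, BRD2 had a region at its far end and BRD3 had no peak within 100 kb. The BRD2 region (chr6:32982040-32982705) lay 535 bp beyond the transcription end and scored 50 and 33, at percentiles of 27.1 and 9.45. Of the 2 genes with such a region at an end, KAT6B was thus reached at its start and BRD2 at its transcription end. Among all protein-coding genes with a region of both replicates at an end and a known strand, 135 of 178 (75.8%) were reached at the start.

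**Figure D4:**
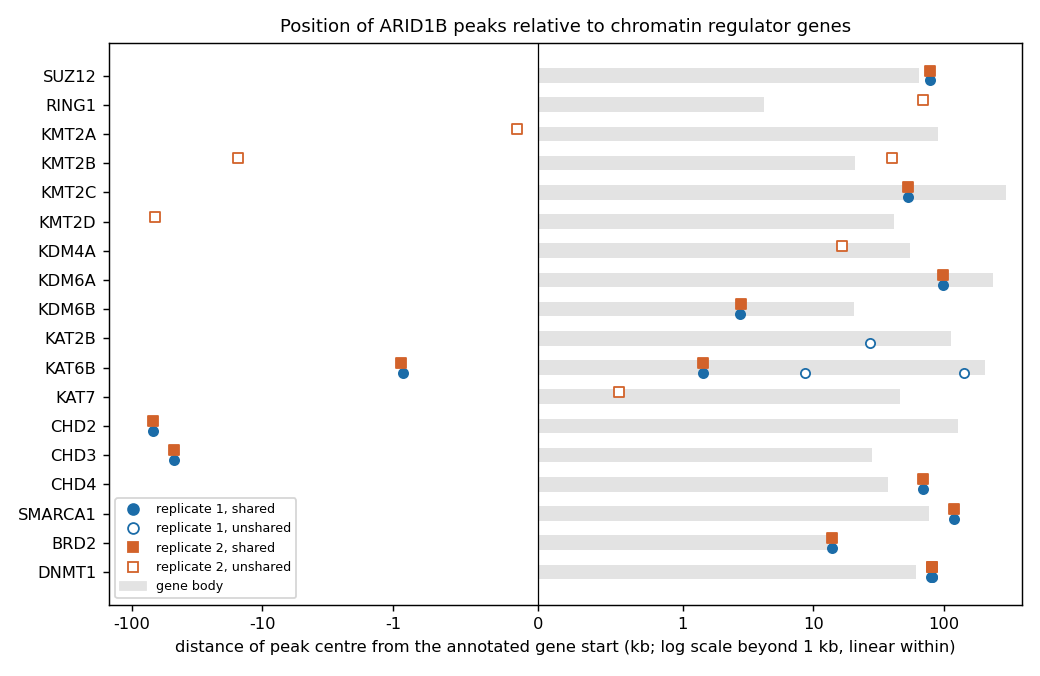
Peaks within 100 kb of the 18 genes with a known strand (rows), by distance of the peak centre from the annotated gene start in kb (x axis, logarithmic beyond 1 kb). Circles are replicate 1 and squares replicate 2, filled where shared and open where not, and grey bars are gene bodies. Shared peaks flank the start of KAT6B, while those of SUZ12, CHD4, SMARCA1, BRD2 and DNMT1 lie beyond the far end. KAT6A and CHD7 are not drawn.

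The Polycomb genes of the list come next. PRC2 deposits the lysine 27 mark of histone H3 and PRC1 ubiquitinates histone H2A. Of the 5 PRC2 and 6 PRC1 genes, 0 had a peak of either replicate at an end (background 1.89%) or inside (background 3.56%), and with shares so low 0 of 11 does not set them apart. SUZ12, a core PRC2 subunit gene, had a region of both replicates 14.7 kb beyond its far end (chr17:32015699-32015953, scores 35 and 76), inside the neighbouring gene LRRC37B. RING1, a ubiquitin ligase gene of PRC1, had an unshared replicate 2 peak 64.3 kb away (score 46), at B3GALT4. EZH1, EZH2, EED, JARID2, RNF2, BMI1, CBX2, CBX7 and CBX8 had none within 100 kb. SUZ12 and KMT2C are known to have partial copies elsewhere in the genome, and how reads matching several copies were placed is not given in the sources used here.

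EZH2, the catalytic subunit gene of PRC2, serves as a contrast to KAT6B in sequence. Its upstream promoter is printed because it is the only other promoter of the list with 4 CCAAT boxes in its window.
EZH2, chr7:148884292-148884541, reverse strand: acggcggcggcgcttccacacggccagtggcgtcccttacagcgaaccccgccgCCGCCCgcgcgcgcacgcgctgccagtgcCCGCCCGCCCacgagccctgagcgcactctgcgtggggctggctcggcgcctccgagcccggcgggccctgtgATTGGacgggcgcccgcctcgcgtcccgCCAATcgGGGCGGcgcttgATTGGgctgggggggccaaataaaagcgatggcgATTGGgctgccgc

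The boxes began at bases 157, 185, 204 and 238 of the printed sequence and so lay 81 bases apart from first to last, against 232 bases at KAT6B start 3. It also held 4 GC boxes, of which 1 pair overlaps. No peak of either list lay within 2151 kb of EZH2. Over all protein-coding genes, 21.5% of windows with 4 or more CCAAT boxes overlapped a peak of either replicate, so most had none. Any link between the spacing of boxes and peaks was not tested.

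CCAAT boxes were frequent in promoters with peaks over the genome at large. The promoter table held 22199 windows of protein-coding genes, and 233 of them overlapped a peak of either replicate. A CCAAT box was found in 72.5% of those 233 windows and in 34.7% of all windows, and a GC box in 79.8 and 56.3%. Among the 21966 windows without a peak 34.3% had a CCAAT box, and among the 123 with peaks of both replicates 81.3% did. The share of windows with a peak was higher the more boxes they held. It was 0.441% with no box, 0.620% with 1, 2.07% with 2, 8.55% with 3 and 21.5% with 4 or more. Windows of 1 gene can overlap, so they are not independent, and counting boxes per window was added after the share of windows with a box had been seen.

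Promoters of the chromatin regulators held a CCAAT box in 20 of 82 windows (24.4%) and a GC box in 58 of 82 (70.7%), beside the 34.7 and 56.3% of all windows. Their median GC content was 68.7%, against 62.3% for all windows of protein-coding genes. These 82 windows belong to 52 of the 58 genes. The table holds no window for CBX2, CBX8, CHD7, KAT6A, KAT8 and SETD1B. Of the 82, 62 had no CCAAT box, and of these only the KMT2A window overlapped a peak. The 14 windows with 1 box, the 3 with 2 (KDM6A and both of the later TET1 starts) and the 1 with 3 (KDM4A) overlapped none, and of the 2 with 4 the KAT6B window did and the EZH2 window did not. The other motifs were also searched on both strands. The E-box (CACGTG) was in 12.2% of the regulators' windows and 8.34% of all, the ETS site (CCGGAAG) in 7.32 and 12.8%, the AP-1 site (TGANTCA) in 2.44 and 6.15%, the TATA box (TATAAA) in 2.44 and 9.47% and the CRE (TGACGTCA) in 1.22 and 2.26%. The 10-base palindromic NRF1 site was in 0 of 82 and in 1.50% of all. A match to a motif is a description of the letters and does not show a bound factor.

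**Figure D5:**
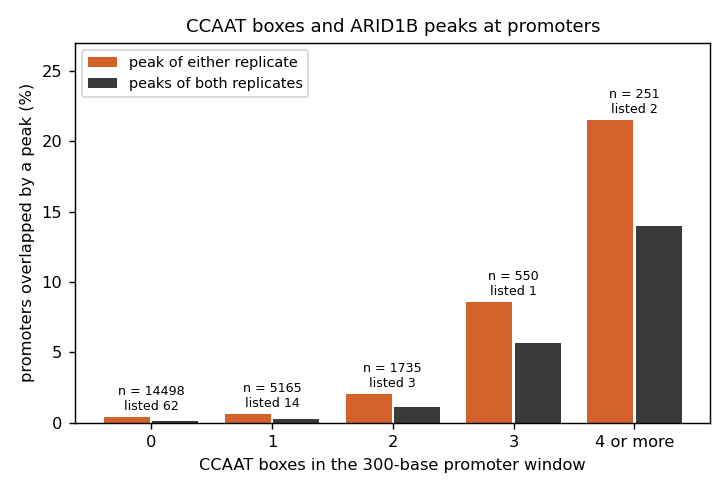
Share of promoter windows of protein-coding genes overlapped by an ARID1B peak (y axis, percent) by the number of CCAAT boxes in the 300-base window (x axis), for peaks of either replicate (orange) and of both (dark). Numbers above the bars give all windows and those of the listed chromatin regulators; the share with a peak of either replicate goes from 0.441% with no box to 21.5% with 4 or more.

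Of the 9 remodeller genes, 5 had a peak of either replicate within 100 kb (background 18.7%) and 0 had one at an end or inside (background 1.89 and 3.56%, so that 0 of 9 does not set them apart). CHD2, CHD3 and CHD4 each had a region of both replicates within 100 kb. The CHD2 region (chr15:92831693-92832064, scores 67 and 41) lay 68.3 kb upstream, with CHD2 as its nearest protein-coding gene. CHD3, a NuRD subunit gene, was 47.7 kb from the KDM6B region described above, which thus counts for both genes. CHD4, the other main NuRD remodeller gene, was 31.2 kb from a region (chr12:6538464-6538905, scores 69 and 84) that lay 93 bp from an end of GAPDH and 56 bp from an end of IFFO1. CHD7, a gene mutated in CHARGE syndrome, had an unshared replicate 1 peak 94.9 kb away (score 105), inside RAB2A, the peak closest to the limit of 100 kb. CHD8 was the gene closest beyond it, with a region at 115 kb, and CHD1 had none nearer than 662 kb. SMARCA1, the ISWI remodeller gene SNF2L, had a region of both replicates 41.8 kb beyond its far end (chrX:129404203-129404678) with the lowest scores of the 12, 27 and 34. SMARCA5 and INO80 had no peak within 100 kb.

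Of the genes of DNA methylation, DNMT1, the maintenance methyltransferase gene, had 2 regions of both replicates at 18.3 and 19.8 kb beyond its far end. The first (chr19:10113605-10115042) scored 84 in replicate 2, where it was a single peak 1438 bp wide, and 32 in replicate 1, where 2 narrower peaks lay under it. The second (chr19:10113175-10113502) scored 49 in replicate 1 and 90 in replicate 2. Both overlapped P2RY11, and the wide one reached EIF3G. DNMT3A, DNMT3B, TET1, TET2 and TET3 had no peak within 100 kb.

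Deacetylase genes (HDAC1, HDAC2, HDAC3 and HDAC4) and H3K36 methyltransferase genes (SETD2, NSD1 and NSD2) had no peak within 100 kb in either list. The background of 18.7% is low enough that 0 of 7 genes does not set them apart. HDAC4, at 353 kb, is the longest gene of the 58. For these 7 genes the nearest region of both replicates lay between 479 kb (HDAC2) and 6063 kb (NSD2).

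The scores of a region often differed between the replicates. Of the 12 regions near these genes, 8 scored higher in replicate 2 (66.7%), where 50.9% of all regions did, and the median log2 ratio of the replicate 2 to the replicate 1 score was 0.35, against 0.03 over all 1313. The 5 regions highest by this ratio, with values from 0.58 to 1.39, were those of DNMT1 (both), KDM6A, SUZ12 and KDM6B. CHD2, KMT2C, BRD2 and the upstream KAT6B region scored lower in replicate 2, with ratios from -0.71 to -0.31. Among the 6 regions at an end or inside, 3 scored higher and the median was 0.03.

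A wider list of 143 other chromatin genes, with Polycomb, COMPASS and NuRD partners and further enzymes and readers, was counted in the same way. A region of both replicates lay at an end of 5 of 143 genes (3.50%, background 1.05%) and within 100 kb of 25 (17.5%, background 11.8%). Inside genes it was 3 of 143, no higher than the background of 2.25%. At ends these were the start of GATAD2A, a NuRD subunit gene (chr19:19385499-19385820, scores 107 and 178), of the demethylase gene KDM4B (56 and 87), of the H4K20 methyltransferase gene KMT5C (53 and 60) and of the arginine methyltransferase gene PRMT1 (43 and 92), and an end of DPY30, a COMPASS subunit gene (56 and 42). Inside lay those of SIN3A, the scaffold gene of a deacetylase corepressor (138 and 194, 3.77 kb from its start), of the coactivator gene NCOA1 (66 and 140) and of KDM4C (65 and 64). The SIN3A region, at a lower percentile of 80.0, scored above every region near the 58 genes.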

How the data were processed

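ARID1B ChIP-seq peak lists of 2 replicates were used. The submitters' processing notes name bcl2fastq (2.20.0.422), Bowtie2 (2.3.4.1), MACS2 (2.1.2) and the build hg38, without roles. For settings, threshold, duplicates and use of the input, the entry is "not given in the sources used here". The deposited lists give 1 score per peak, set by the authors on an unstated scale, and no counts, so depth is unknown.

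Starts were converted to count from 1. Genes came from a RefSeq table of GRCh38.p14, the assembly named hg38, of which 58961 genes on chromosomes 1 to 22, X and Y were kept. Strand, starts and promoter sequences came from a RefSeq promoter table (250 bases before to 50 after each start). Peaks overlapping by at least 1 bp formed 1 region, whose score in a list is its highest peak's. The counting was tested on simulated data and recovered every planted peak. Members and lists were chosen with earlier results of these data known. Named were all members with a peak and, of the other chromatin genes, those with a region at an end or inside. Alternatives were a stricter score, other overlaps, windows and distances, the nearest gene only, and each replicate alone. Python 3.11.15.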

Additional observations from a re-analysis of the deposited data

How the results depend on the processing

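Of 29 alternatives, 18 kept the main value within 1.5 times for counts or within the spread for scores (for the difference of percentiles, the direction alone), 11 moved it and 0 reversed it. Within the spread, the median percentile still went from 20.4 to 32.4 with the mean of the lists, and the median log2 score ratio from 0.35 to 0.03 for regions at an end or inside. A stricter alternative left out the lower-scoring peaks of each list (those under its median). Genes with a region of both replicates then numbered 0 at ends (background 0.463%), 2 inside (background 1.15%) and 3 within 100 kb (background 6.12%). A peak of either replicate then lay within 100 kb of 11 genes (background 10.9%). At ends, the main count of 2 became 1 with 50% reciprocal overlap (background 0.972%) and 0 within 500 bp (background 0.831%). Within 100 kb, the main count of 11 became 7 (background 4.32%) when a region counted only for its nearest protein-coding gene. Replicate 1 alone gave 2 genes at ends (background 1.14%), 5 inside (background 3.01%) and 13 within 100 kb (background 14.1%). Replicate 2 alone gave 5 at ends (background 1.8%), 5 inside (background 2.85%) and 18 within 100 kb (background 16.6%). These counts of 13 and 18 stand against 20 genes with either list (background 18.7%). The median percentile, 20.4 in the main setting, ran from 27.1 without replicate 2 to 44.2 without replicate 1. The cause was not tested. With so few genes in each class, 1 gene moves the counts at ends by 1.5 times or more. Depth is unknown, so a gene without a peak is not shown to lack ARID1B. No paired analysis was possible because the replicates form a single group.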

Other observations

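The chromatin regulator genes lay about as far from the regions as other genes did. The nearest region of both replicates was a median of 807 kb from the 58 genes and 796 kb from all protein-coding genes, and it was over 500 kb away for 38 of the 58 (65.5%) and for 62.8% of all. For 23 of the 58 (39.7%) no peak of either list lay within 500 kb, which held for 48.8% of all protein-coding genes. Beyond CHD8, the genes with the nearest peaks outside 100 kb were DNMT3A (149 kb), CBX7 (158 kb) and KAT5 (200 kb), each from 1 list. The farthest was TET2, a gene of DNA demethylation often mutated in blood cancers, whose nearest peak lay 2856 kb away.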
